A study of Mus musculus with 12 samples.

Results

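The genes described here are 10 enzymes of serine synthesis and folate-bound one-carbon metabolism, Phgdh, Psat1, Psph, Shmt1, Shmt2, Mthfd1, Mthfd2, Mthfd1l, Aldh1l2 and Gldc. They are a named set taken by symbol, and all 10 were found among the 24982 gene symbols of the deposited files. The study sequenced polyadenylated RNA of B lymphocytes from the spleens of mice 6 weeks old, in 3 genotypes with 4 libraries each. WT mice were C57BL/J6 per the series' design text. Eμ-Myc mice carry a Myc transgene under the immunoglobulin heavy chain enhancer Eμ, which drives it in B-lineage cells, and the Eμ-Myc; PRPS2 KO mice, called the knockout group from here, carry the same transgene and lack PRPS2. Prps2 encodes a phosphoribosyl pyrophosphate synthetase, an enzyme that makes the sugar phosphate used for nucleotides. No library of PRPS2 knockout cells without the transgene was analysed here, so both comparisons with WT include the transgene. The series set Eμ-Myc against WT to catalogue Myc-deregulated expression, and the knockout group against Eμ-Myc to ask whether redox changes after PRPS2 loss met that programme.

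Serine is made from a glycolytic intermediate by Phgdh, Psat1 and Psph, acting in that order. Shmt1 in the cytosol and Shmt2 in mitochondria split serine into glycine and a one-carbon unit carried on tetrahydrofolate. Mthfd2 and Mthfd1l pass the mitochondrial units on to formate, and Mthfd1 takes formate up again in the cytosol, where the units feed purine and thymidylate synthesis. Aldh1l2 oxidises mitochondrial formyl-tetrahydrofolate, and Gldc is the decarboxylase of the glycine cleavage system, which draws units from glycine. The pathway is known for supplying dividing lymphocytes with nucleotide precursors. The transcription factors MYC and ATF4 are both known regulators of several of its genes.

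Values are coverage per gene, divided by 1 scaling factor per library. The summed coverage per library ran from 1277305.5 to 1885768.9, how many reads stand behind each value is unknown, and precision here is the scatter among libraries. Prps2 was 16.4 to 18.4 in the 4 knockout libraries, against 242 ± 39.5 (SD, n = 4) in Eμ-Myc and 128 ± 19.4 (SD, n = 4) in WT, so each knockout library had low Prps2 coverage. Myc coverage was 231 to 352 in WT, 1508 to 2262 in Eμ-Myc and 1107 to 3318 with the knockout. The 5 B cell markers (Cd79a, Cd79b, Ms4a1, Pax5 and Cd22) were present in each group, with summed coverage of 4903 to 9619 in WT, 5307 to 6554 in Eμ-Myc and 4894 to 5306 with the knockout. Markers of other cells were present as well. The 7 T cell markers summed to 634 to 3223 in WT, 145 to 198 in Eμ-Myc and 56.3 to 769 with the knockout, and the 8 myeloid markers to 8500 to 25635, 5822 to 16425 and 1452 to 15752. In such bulk samples, fewer cells of a type and less RNA per cell cannot be told apart. The knockout libraries fell apart into libraries 1 and 2 and libraries 3 and 4: the median absolute log2 difference over genes was 0.181 between 1 and 2, 0.094 between 3 and 4, and 0.564 to 0.72 across. The titles name biological replicates, but no label says which animals they came from, so p-values measure the spread between these libraries.

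In Eμ-Myc against WT, coverage rose in 8 of the 8 enzymes that could be tested. Shmt1, the cytosolic serine hydroxymethyltransferase, rose most, 10.3-fold (ratio of means), followed by Psat1 (4.46-fold), Phgdh (4.41-fold), Shmt2 (4.19-fold), Mthfd1 (3.81-fold), Mthfd1l (2.66-fold), Mthfd2 (2.32-fold) and Psph (1.94-fold). Aldh1l2 and Gldc stayed at or near 0 in the libraries of each genotype and passed no filter, so they were not tested. All genes tested numbered 12704, of which 55.7% were called at an adjusted p under 0.05 (limma, Benjamini-Hochberg) and 28.3% were called higher. The median log2 fold change was 1.98 over the 8 enzymes and -0.06 over all genes tested. Shmt1 ranked 30 among the 12704 genes by log2 fold change, and Psph, the lowest of the 8, ranked 1606. In the same comparison 15 of 15 proliferation genes were called higher, with summed coverage of 932 to 1160 in WT and 4200 to 5589 in Eμ-Myc. T cell markers were called lower in 7 of 7 (median log2 fold change -3.05) and NK cell markers in 6 of 6 (-2.17). Of the immature B cell markers, Rag1 (2.96), Igll1 (2.44) and Vpreb1 (2.05) were called higher, Il7r (-2.44) was called lower and Dntt (0.14) did not pass (limma). The part of these differences in the enzymes' values was not tested.

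The promoters of 9 of the 10 genes matched RefSeq entries (GRCm38.p6), and none for Aldh1l2 was in the table used here. The 250 bases before the transcription start of 4 of them are shown because of their place in the pathway and their values: Phgdh opens serine synthesis (chr3:98339970-98340219, minus strand), Shmt1 rose most (chr11:60811266-60811515, minus strand), Shmt2 had the highest coverage (chr10:127522445-127522694, minus strand) and Mthfd2 is its mitochondrial partner (chr6:83317605-83317854, minus strand). Capitals mark CCAAT, or ATTGG where the match is on the other strand.
Phgdh: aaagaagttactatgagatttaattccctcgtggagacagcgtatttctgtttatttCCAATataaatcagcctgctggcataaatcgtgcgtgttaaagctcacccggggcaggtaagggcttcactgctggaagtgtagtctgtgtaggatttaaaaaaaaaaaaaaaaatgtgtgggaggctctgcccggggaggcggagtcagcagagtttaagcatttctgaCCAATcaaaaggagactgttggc
Shmt1: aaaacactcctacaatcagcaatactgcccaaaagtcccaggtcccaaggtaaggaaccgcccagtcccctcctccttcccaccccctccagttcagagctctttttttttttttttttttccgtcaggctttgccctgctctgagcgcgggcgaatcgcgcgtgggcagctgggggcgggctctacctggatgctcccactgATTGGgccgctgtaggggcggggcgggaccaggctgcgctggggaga
Shmt2: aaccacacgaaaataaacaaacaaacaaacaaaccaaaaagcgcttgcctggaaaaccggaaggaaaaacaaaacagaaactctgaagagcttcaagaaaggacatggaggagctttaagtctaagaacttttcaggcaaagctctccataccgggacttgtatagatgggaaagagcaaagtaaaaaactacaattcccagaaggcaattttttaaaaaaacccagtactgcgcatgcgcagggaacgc
Mthfd2: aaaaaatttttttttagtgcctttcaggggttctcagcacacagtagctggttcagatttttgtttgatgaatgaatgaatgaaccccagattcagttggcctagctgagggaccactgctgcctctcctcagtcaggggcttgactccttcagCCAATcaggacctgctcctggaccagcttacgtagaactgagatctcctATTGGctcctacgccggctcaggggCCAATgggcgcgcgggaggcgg
CCAAT was present on either strand in 7 of the 9 genes (Phgdh, Psat1, Psph, Shmt1, Mthfd1, Mthfd2 and Gldc), and in 37.5% of all 27025 genes with windows of the same length. A gene counts where any of its promoters holds the letters, and Psat1 has 2 promoters. The GC box GGGCGG, on either strand, was present in 6 of the 9 and in 35.4% of all genes. The E-box CACGTG, whose letters read the same on both strands and which MYC is known to bind, was in 0 of the 9 genes and in 6.86% of all genes. TGATGNAA, an ATF4 element searched on both strands, was in 0 of the 9 and in 3.91%. A missing match says only that these letters are not in this window. The windows of Shmt1, Mthfd2 and Psat1 lie wholly inside the GENCODE gene spans, which begin farther upstream than the RefSeq starts used here. Mthfd2 had 3 matches to CCAAT, at 96, 47 and 22 bases before the start, and Phgdh had 2, at 193 and 23. Shmt1 had 1, at 47, and 4 GC boxes, while Shmt2 had neither motif. Gldc, which was at 0 in 11 libraries, also held both motifs.

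Phgdh, the dehydrogenase that commits a glycolytic intermediate to serine (chr3:98313170-98339990, minus strand, GRCm38), had coverage of 60.3, 82.6, 66.7 and 73.8 in WT libraries 1 to 4, 238, 332, 332 and 349 in Eμ-Myc and 164, 207, 498 and 471 with the knockout. The Eμ-Myc libraries lay above WT without overlap, as did 26.2% of all genes tested, and Eμ-Myc library 1 was the low one of its group. The log2 fold change of Phgdh in Eμ-Myc against WT was 2.13 (SE 0.15, limma, adjusted p = 6.64e-06). Phgdh has 17 pseudogenes with 90.4% to 98.7% identity over at least 200 bases of its transcript; 2 of them are listed in the files, at no more than 0.1, and how reads were divided between copies is not given in the sources used here, so the Phgdh values are uncertain. Psat1, the aminotransferase of the next step (chr19:15904678-15947337, minus strand), had coverage of 52.6, 61.8, 59.4 and 59.1 in WT, 215, 207, 291 and 325 in Eμ-Myc and 131, 182, 426 and 427 with the knockout. Its WT libraries lay close together (SD 3.93) and below each of the other 8. The log2 fold change of Psat1 was 2.12 (SE 0.15, limma, adjusted p = 7.58e-06). Psph, the phosphatase that releases free serine (chr5:129765558-129787449, minus strand), had coverage of 20.4, 25.4, 21.6 and 26.3 in WT, 37.5, 47.3, 47.5 and 49.8 in Eμ-Myc and 28.2, 36.0, 63.0 and 63.0 with the knockout. Its increase in Eμ-Myc, 0.94 on the log2 scale (SE 0.13, limma, adjusted p = 0.000318), was the lowest of the 8, again without overlap. Psph shares 452 exonic bases with Cct6a on the opposite strand, whose coverage reached 526.6. The library kit is directional per the labels, but whether the counting used strand is not given, so the Psph value is uncertain to that extent.

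Among the serine hydroxymethyltransferases, Shmt1 (chr11:60788104-60811718, minus strand) was the enzyme with the lowest WT coverage of the 8, at 8.63, 10.3, 12.1 and 11.2, against 92.3, 101, 115 and 125 in Eμ-Myc and 47.4, 70.8, 182 and 177 with the knockout. The 4 WT libraries were far below each of the other 8. The log2 fold change of Shmt1 was 3.30 (SE 0.14, limma, adjusted p = 1.87e-06), with a 95% confidence interval of 2.98 to 3.62 that did not meet the interval of any of the other 7 enzymes. Shmt2 (chr10:127517123-127522444, minus strand) had coverage of 138, 159, 139 and 170 in WT, 559, 646, 662 and 673 in Eμ-Myc and 355, 461, 1075 and 1043 with the knockout. The log2 fold change of Shmt2 in Eμ-Myc was 2.07 (SE 0.11, limma, adjusted p = 2.35e-06), and the groups did not overlap. Shmt1 overlaps Smcr8 by 184 bases and Shmt2 overlaps Ndufa4l2 by 32 bases, each on the opposite strand, with coverage of at most 33.9 for Smcr8 and 0.1 for Ndufa4l2.

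Of the enzymes that interconvert folate-bound units, Mthfd1, the cytosolic trifunctional enzyme (chr12:76255298-76319803, plus strand), had coverage of 33.3, 35.2, 34.1 and 39.2 in WT, 124, 111, 152 and 153 in Eμ-Myc and 80.5, 104, 235 and 230 with the knockout. Eμ-Myc lay above WT without overlap, by 1.90 on the log2 scale (SE 0.13, limma, adjusted p = 5.35e-06). Mthfd2, the mitochondrial dehydrogenase and cyclohydrolase (chr6:83305691-83325908, minus strand), had coverage of 43.6, 36.8, 31.9 and 38.3 in WT, 81.2, 90.1, 86.2 and 91.8 in Eμ-Myc and 55.6, 69.9, 124 and 128 with the knockout. It had the tightest Eμ-Myc libraries of the 8 (SD 4.70) and an increase of 1.21 on the log2 scale (SE 0.11, limma, adjusted p = 2.96e-05). Mthfd1l, the mitochondrial synthetase that releases formate (chr10:3973118-4167081, plus strand), had coverage of 72.7, 71.9, 76.7 and 91.9 in WT, 201, 154, 230 and 248 in Eμ-Myc and 134, 174, 379 and 363 with the knockout. Its log2 fold change was 1.39 (SE 0.16, limma, adjusted p = 8.22e-05), and Eμ-Myc library 2 was the low one of its group. Aldh1l2 (chr10:83487450-83534140, minus strand) and Gldc (chr19:30098447-30175429, minus strand) were each listed at 0 in 11 libraries and at 0.1, the smallest step of the files, in Eμ-Myc library 3. Aldh1l2 shares 1056 exonic bases with D10Wsu102e on the opposite strand, and stayed at those values although the coverage of D10Wsu102e reached 68.7.

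**Figure D1:**
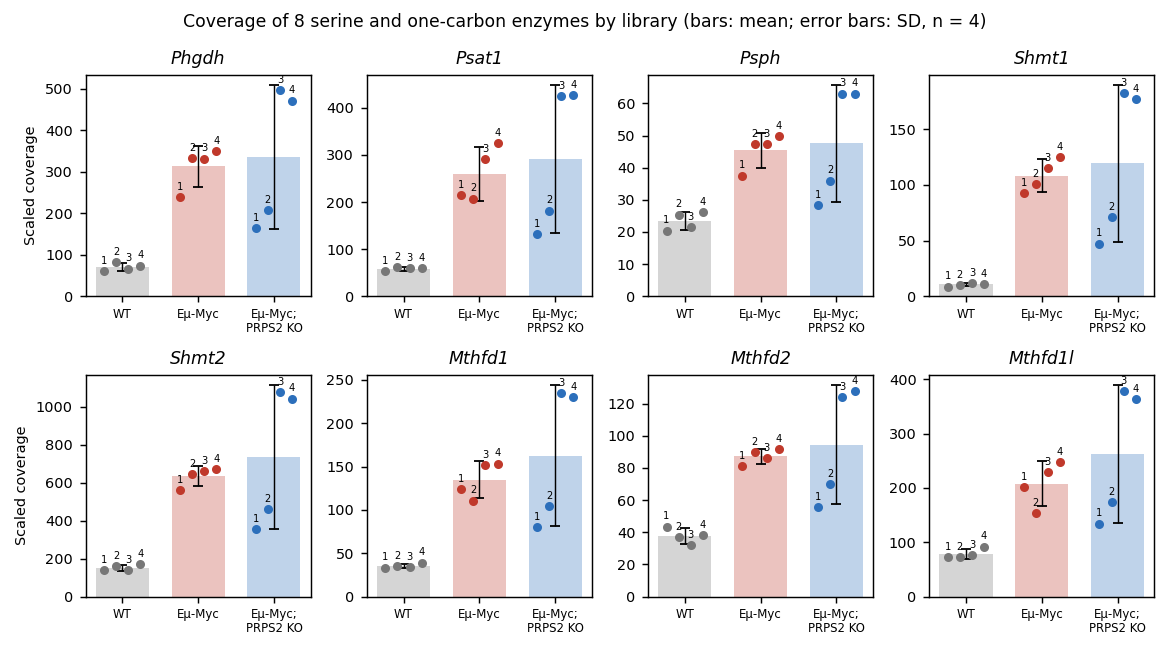
Scaled coverage (linear axis from 0) of the 8 enzymes tested, by genotype: points are libraries with their replicate numbers, bars are means and error bars SD of 4 libraries. Eμ-Myc lies above WT without overlap in each panel, and knockout libraries 3 and 4 lie above libraries 1 and 2.

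By mean coverage, Shmt2 was the highest of the 10 enzymes in each genotype (151 for WT, 635 for Eμ-Myc, 733 for the knockout group). How the coverage was averaged over a gene's length is not given, so an order between genes assumes that it is per base. In WT it was followed by Mthfd1l (78.3), Phgdh (70.8), Psat1 (58.2), Mthfd2 (37.6), Mthfd1 (35.4), Psph (23.4) and Shmt1 (10.6). The libraries of Mthfd1l and Phgdh, of Phgdh and Psat1, and of Mthfd2 and Mthfd1 overlapped, and the other neighbours in that order did not. In Eμ-Myc the order was Phgdh (313), Psat1 (259), Mthfd1l (208), Mthfd1 (135), Shmt1 (108), Mthfd2 (87.3) and Psph (45.5) after Shmt2. There Phgdh and Psat1, Psat1 and Mthfd1l, and Mthfd1 and Shmt1 overlapped, but within each single library the first of each pair was above the second in 4 of 4. Shmt1 thus moved from the lowest place among the 8 to one above Mthfd2 and Psph. The knockout group had the same order of means as Eμ-Myc, and there the libraries of each pair of neighbours among the 8 overlapped.

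Since the paired enzymes of the 2 compartments rose by different amounts, their ratios within a library differed between genotypes. The coverage ratio of mitochondrial Shmt2 to cytosolic Shmt1 was 15.9, 15.4, 11.4 and 15.2 in WT, 6.06, 6.40, 5.76 and 5.38 in Eμ-Myc and 7.49, 6.51, 5.89 and 5.90 with the knockout. Each WT library was above each of the other 8, and the log2 ratio was lower by 1.23 in Eμ-Myc (difference -1.23, exact two-sided permutation test, p = 0.0286, adjusted p = 0.0429 over 9 tests). The ratio of Mthfd2 to Mthfd1 was 1.31, 1.05, 0.935 and 0.977 in WT, 0.655, 0.814, 0.568 and 0.598 in Eμ-Myc and 0.690, 0.672, 0.529 and 0.556 with the knockout. Mthfd2 was near Mthfd1 in WT and below it in each library with the transgene, with a log2 difference of -0.69 between Eμ-Myc and WT (exact permutation test, adjusted p = 0.0429). For Mthfd1l over Mthfd1 the ratio was 2.21 ± 0.126 in WT, 1.54 ± 0.108 in Eμ-Myc and 1.63 ± 0.0438 with the knockout (SD, n = 4), a log2 difference of -0.51 between Eμ-Myc and WT (exact permutation test, adjusted p = 0.0429). The knockout group differed from WT by -1.11, -0.79 and -0.42 in these 3 log2 ratios, again without overlap (exact permutation test, adjusted p = 0.0429 each). Between the knockout group and Eμ-Myc the differences were 0.12, -0.10 and 0.09, with overlap (exact permutation test, adjusted p = 0.321, 0.543 and 0.22). Taken as pairs of the same replicate number, the Shmt2/Shmt1 ratio was higher in the knockout library in 4 of 4 pairs (exact permutation test of the pairs, p = 0.125, the smallest that 4 pairs can give, adjusted p = 0.161), and the other 2 ratios had an adjusted p of 0.25 each. With 70 arrangements of 8 libraries, 0.0286 is the smallest p that the test can give. The adjusted p of 0.0429 depends on the tests of both groups against WT lying at that floor, and these share the WT libraries.

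**Figure D2:**
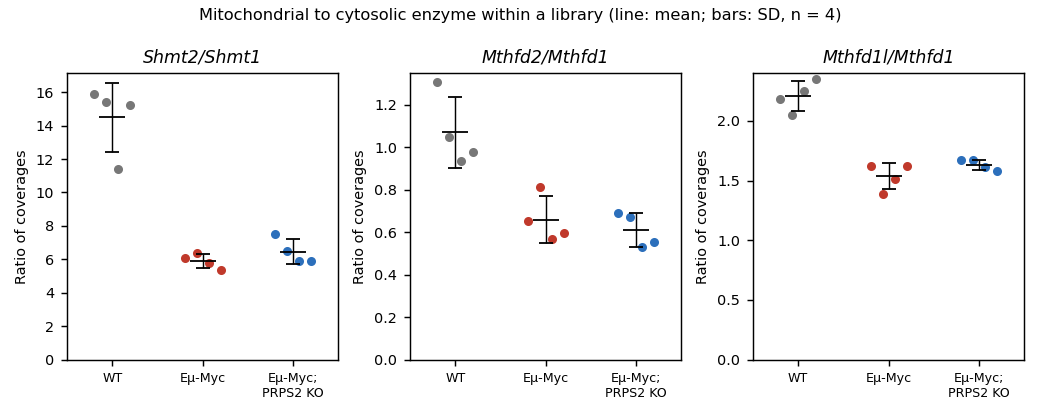
Ratio of the coverage of a mitochondrial enzyme to that of its cytosolic partner in each library (linear axis from 0), by genotype, with the mean and SD of 4 libraries. WT libraries lie above those of both other genotypes in each panel, and the Shmt2/Shmt1 mean falls from 14.5 in WT to 5.90 in Eμ-Myc and 6.45 with the knockout.

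Against Eμ-Myc, the knockout group showed no enzyme that passed the test. Of the 8 tested, 0 were called at an adjusted p under 0.05 (limma) and 0 had an unadjusted p under 0.05, and among all 12559 genes tested 0.00796% were called, which is Prps2 alone, while 0.955% had an unadjusted p under 0.05. The log2 fold changes ran from -0.08 for Shmt1 to 0.22 for Mthfd1l, with SE of 0.27 to 0.43 and an adjusted p of 1.0 for each (limma). The 95% confidence intervals were wide, -1.07 to 0.91 for Shmt1, -0.92 to 0.82 for Phgdh, -0.79 to 0.89 for Shmt2 and -0.60 to 0.65 for Mthfd2, so they include changes of that size in either direction. The libraries overlapped in 8 of 8, where 1.75% of all genes tested did not overlap. With library quality weights 8 of 8 were called higher, by 0.42 to 0.68, beside 61.3% of all genes called and 34.7% called higher (limma). That fit gave knockout libraries 3 and 4 weights of 3.30 and 7.45 and libraries 1 and 2 weights of 0.0851 and 0.127, and so rests on libraries 3 and 4.

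**Figure D3:**
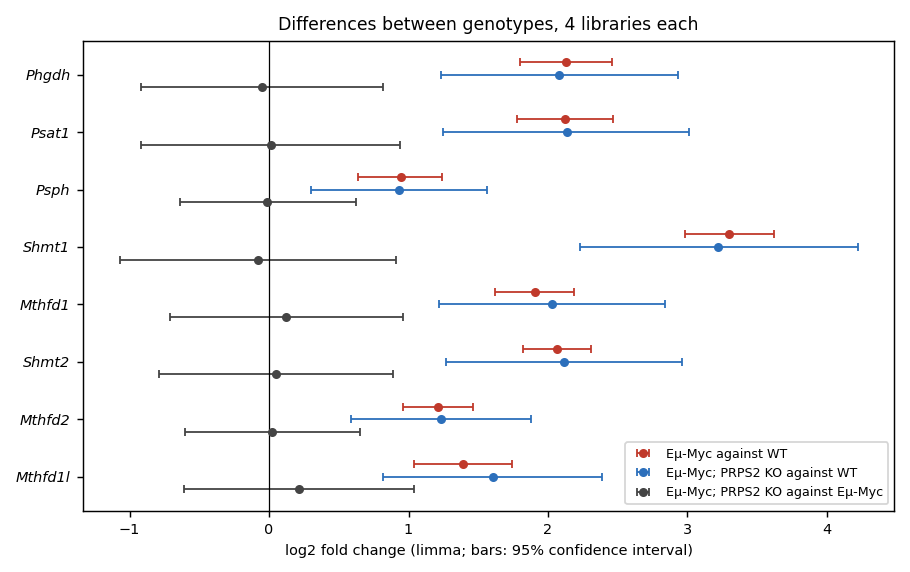
Log2 fold change (limma) of the 8 tested enzymes in the 3 comparisons, with 95% confidence intervals, 4 libraries per genotype. Both comparisons with WT lie above 0 for each enzyme, Shmt1 farthest, while the intervals of the knockout group against Eμ-Myc include 0. Both comparisons with the knockout group have wider intervals than Eμ-Myc against WT.

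The knockout libraries differed from each other far more than those of either other genotype. The median log2 SD over the 8 enzymes was 0.168 for WT, 0.212 for Eμ-Myc and 0.801 for the knockout group, beside 0.216, 0.216 and 0.393 over all 12600 genes tested in both comparisons with WT. Shmt1 had the largest spread (log2 SD 0.967; highest library 3.85 times the lowest) and Psph the smallest (0.579; 2.23 times). Measured from the WT mean, the median log2 value of the 8 enzymes was 1.17 in knockout library 1, 1.55 in library 2, 2.76 in library 3 and 2.71 in library 4, and 1.73 to 2.13 in the Eμ-Myc libraries. In 8 of 8 enzymes library 1 was below library 2, and library 2 below both 3 and 4. The same order held in 36.3% of the 12710 genes tested against WT and in 86.6% of the 3542 of them that were called higher in Eμ-Myc. In 7 of 8 enzymes libraries 1 and 2 lay below and libraries 3 and 4 above the whole Eμ-Myc range, which held for 18.0% of all genes tested and for 58.0% of those called higher in Eμ-Myc. Mthfd1l was the exception, since its library 2 (174) was above the lowest Eμ-Myc library (154). Myc coverage took the values 1107, 1661, 3048 and 3318 in knockout libraries 1 to 4, and the 15 proliferation genes summed to 2574, 3309, 7193 and 7246. The T cell markers ran the other way, 732, 769, 56.3 and 57.9, as did the NK cell markers (446, 304, 17.7 and 18.3) and the myeloid markers (15752, 11281, 3123 and 1452). The 6 immature B cell markers summed to 127, 138, 39.0 and 35.3, and the 5 plasma cell markers to 496, 575, 247 and 277.5. These sums were also lower in libraries 3 and 4, but a few genes can carry a sum. In the knockout group against Eμ-Myc the SE was 0.91 for Il7r but 0.16 for Rag2, and 1.55 for Jchain but 0.18 for Irf4 (limma). The sums therefore do not describe each marker. The 5 B cell markers summed to 4894 to 5306 in the knockout libraries. What part any of these has in the enzymes' spread was not tested.

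**Figure D4:**
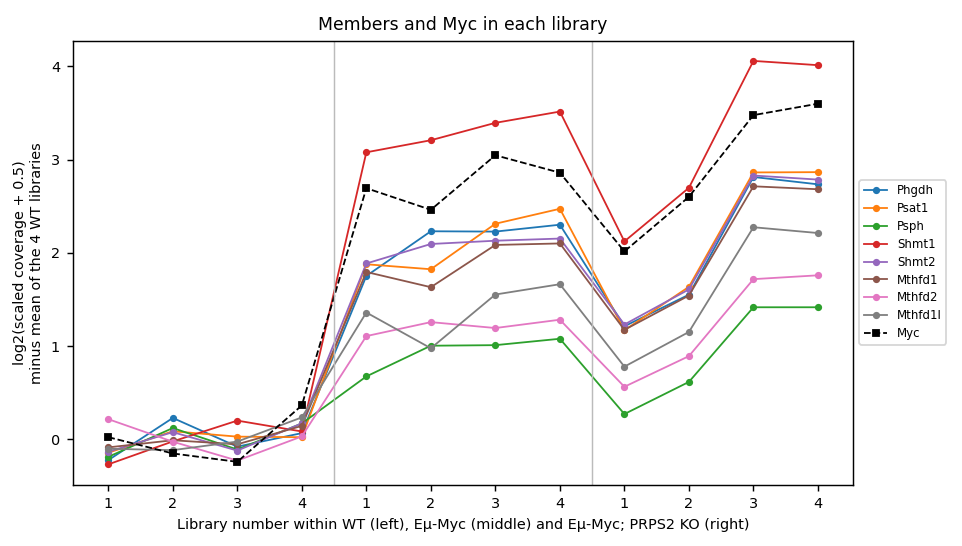
Log2(scaled coverage + 0.5) of the 8 enzymes and of Myc in each of the 12 libraries, minus the mean of the 4 WT libraries. Outside WT, Shmt1 is the highest enzyme in each library and Psph the lowest in 7 of 8, while the order of the others varies. Knockout libraries 1 and 2 lie under libraries 3 and 4.

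Against WT, the knockout group had higher coverage of 8 of the 8 enzymes tested, beside 29.4% of 12710 genes called and 17.6% called higher (limma, adjusted p under 0.05). Shmt1 rose 11.3-fold (log2 fold change 3.22, SE 0.43, limma, adjusted p = 0.0118), Psat1 5.0-fold, Shmt2 4.84-fold, Phgdh 4.73-fold, Mthfd1 4.58-fold, Mthfd1l 3.35-fold, Mthfd2 2.51-fold and Psph 2.03-fold (log2 fold change 0.93, SE 0.28, limma, adjusted p = 0.0414). The median log2 fold change of the 8 was 2.05, beside -0.04 over all genes tested, and 2.68 with library quality weights. In the same comparison 15 of 15 proliferation genes were called higher, with summed coverage of 2574 to 7246 against 932 to 1160 in WT, and 4 of 4 platelet markers were called lower (median log2 fold change -2.11). The immature B cell markers Vpreb1, Igll1 and Rag1 were called higher, 3 of 5 without Rag2, which reached the minimum in no WT library. Il7r (log2 fold change -2.15) and Dntt (-0.05) did not pass. Of the T cell, NK cell and myeloid markers, 0 of 7, 0 of 6 and 0 of 8 were called (limma, where 5, 4 and 1 had an unadjusted p under 0.05). Each marker of those 3 lists had a negative log2 fold change, with medians of -3.23, -2.50 and -1.22. Their part in the enzymes' values was not tested. No knockout library overlapped WT in any of the 8, where 21.1% of all genes tested were higher without overlap. This comparison shares its WT libraries with that of Eμ-Myc against WT, so the likeness of their fold changes is no separate evidence. The number called fell to 5, 4, 2 and 6 without WT library 1, 2, 3 or 4, and to 5 without knockout library 3 or 4, while Shmt1 and Mthfd1 passed in each of these fits (highest adjusted p = 0.049 and 0.0497, limma). With the replicate numbers as a block, Psph (adjusted p = 0.0546) and Mthfd2 (adjusted p = 0.0521) no longer passed.

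Genes around the pathway were called in both directions in Eμ-Myc against WT, as were all genes tested, of which 28.3% were called higher and 27.4% lower. Of the genes called, 50.8% were higher, and 42.0% when libraries were scaled to total coverage. Of 12 tested genes of the folate cycle, 5 were called higher and 4 lower, with a median log2 fold change of 0.26. Tyms, thymidylate synthase, went from 13.0 ± 4.3 in WT to 83.8 ± 13.0 (SD, n = 4 each; log2 fold change 2.68, limma, adjusted p = 1.24e-05). The reduced folate carrier Slc19a1 rose by 2.39 and Fpgs, which adds glutamates to folate, by 1.24 on the log2 scale, while Mthfs, which returns folinate to the pool of active folates, went from 51.9 ± 10.6 to 27.2 ± 4.69 (SD, n = 4; -0.91, limma, adjusted p = 0.00133). In glycine cleavage 2 of 3 tested genes were called higher, the carrier protein Gcsh by 1.92 and the dehydrogenase Dld by 0.85, although the decarboxylase Gldc was hardly detected and Amt did not pass. Dld also serves other mitochondrial dehydrogenase complexes. In the methionine cycle and transsulfuration 5 of 7 were called higher and 0 lower, with a median of 0.61, leaving out the transsulfuration enzymes Cth and Cbs. Those reached the minimum of 1 in no WT library, so the filter let them in only through Eμ-Myc and their calls are not counted here. Coverage of Cth was 0.249 ± 0.115 in WT and 8.17 ± 1.42 in Eμ-Myc, and Cbs had 0.224 ± 0.158 and 2.43 ± 0.529 (SD, n = 4). Ahcy, the hydrolase of S-adenosylhomocysteine, rose 4.32-fold. Mtr, methionine synthase, was higher by 0.65 with overlap (limma, adjusted p = 0.0231). It did not pass when libraries were scaled to total coverage (adjusted p = 0.0804), nor without WT library 1 or 2 or Eμ-Myc library 1, 3 or 4 (limma, adjusted p of 0.00171 to 0.0688 over the 8 fits without 1 library).

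Transporters and users of serine were called higher in 2 and lower in 4 of 12 tested genes (median -0.13), leaving out the neutral amino acid transporter Slc1a4, which reached the minimum in no WT library. Over all genes 28.3% were higher and 27.4% lower, so the counts say nothing particular of this list. Slc1a4 had coverage of 3.35 ± 0.493 in Eμ-Myc against 0.41 ± 0.0725 for WT (SD, n = 4). The related transporter Slc1a5 (1.05) and the mitochondrial serine carrier Sfxn1 (1.72) rose on the log2 scale, while the related sideroflexin Sfxn3 fell by 1.01, from 265 ± 62.4 to 131 ± 20.9 (SD, n = 4; limma, adjusted p = 0.000972). The ATF4 programme, a set of amino acid stress genes, had 3 called higher and 3 lower of 12, shares near those of all genes, with a median of -0.74, leaving out Trib3, which reached the minimum in no Eμ-Myc library (0.451 ± 0.232, against 1.46 ± 0.487 for WT, SD, n = 4). Asns, asparagine synthetase, rose by 2.71 (SE 0.50) and the amino acid transporter Slc7a5 by 2.15, whereas the stress gene Ddit4 fell by 1.01 (limma, adjusted p = 0.00067). Ddit4 did not pass with all 12 libraries in one fit (adjusted p = 0.0685). These lists share no gene with the 10 enzymes. In the knockout group against Eμ-Myc, 0 genes of the 5 lists were called and 0 had an unadjusted p under 0.05 (limma); the named genes lay between -0.27 (Ddit4) and 0.44 (Cbs and Slc1a4), and Trib3 was not tested. With library quality weights, where 61.3% of all genes were called, the 17 named genes of these lists tested were called too, from -1.02 for Ddit4 (limma, adjusted p = 0.00334) to 1.35 for Cbs (limma, adjusted p = 0.00139). Against WT the knockout group had 3 higher and 2 lower in the folate cycle, 2 and 0 in glycine cleavage, 4 and 0 in the methionine list without Cth and Cbs, 2 and 0 among serine transporters and users without Slc1a4, and 2 and 1 in the ATF4 programme, beside 17.6% of all genes called higher and 11.8% lower. The number of all genes called ran from 431 to 6667 when 1 library was left out. Tyms (2.48), Slc19a1 (2.45), Fpgs (1.35), Mthfs (-1.04), Gcsh (1.92), Dld (0.85), Ahcy (2.07), Mtr (0.91), Sfxn1 (1.77), Slc1a5 (0.97), Asns (2.88) and Slc7a5 (2.29) passed on the log2 scale, and Sfxn3 (-1.10), Trib3 (-0.85) and Ddit4 (-1.29) did not (limma, adjusted p = 0.0539, 0.0749 and 0.0704). Those 3 passed with all 12 libraries in one fit (limma, adjusted p = 0.0187, 0.0411 and 0.0282) and with library quality weights, where Ddit4 was at -2.07. Of these 12 calls, 3 (Tyms, Sfxn1 and Slc7a5) held in each fit without 1 library and 9 did not. Fpgs, Gcsh and Dld did not pass when any 1 of the WT libraries, or knockout library 3 or 4, was left out, with an adjusted p of up to 0.106 for Dld. Mthfs did not pass without WT library 1, 2 or 3 or knockout library 3 or 4, Asns without WT library 2, 3 or 4 or knockout library 3 or 4, and Mtr without WT library 1 or 2 or knockout library 3 or 4. Ahcy was lost without WT library 1, 2 or 3, Slc19a1 without 2 or 3, and Slc1a5 without 3. With the replicate numbers as a block, Dld (adjusted p = 0.0648) and Asns (adjusted p = 0.0534) did not pass (limma).

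**Figure D5:**
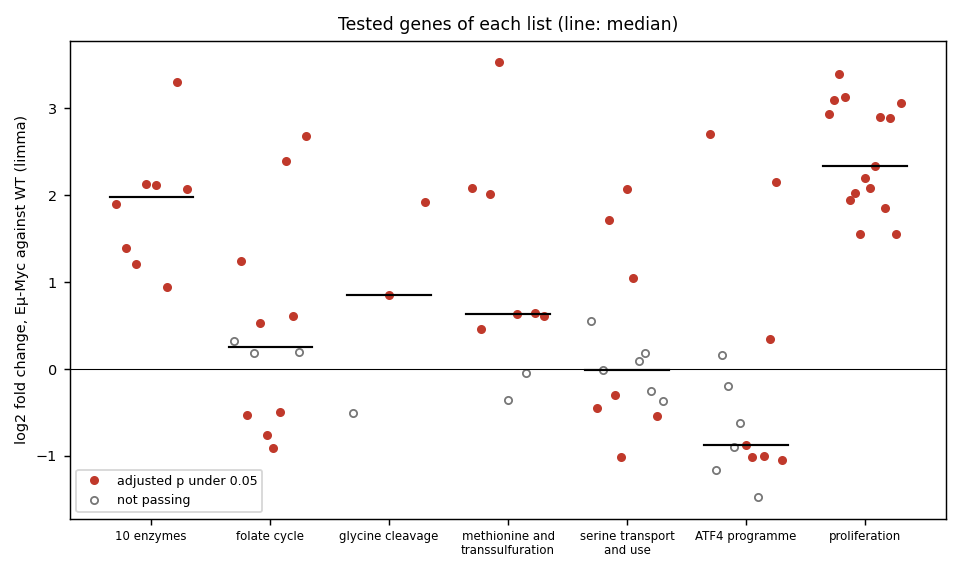
Log2 fold change of Eμ-Myc against WT (limma) for each tested gene of the 10 enzymes, 5 neighbouring pathway lists and the proliferation list, with the median of each as a line and filled points for an adjusted p under 0.05. The 8 tested enzymes (median 1.98) and the 15 proliferation genes (median 2.34) are all above 0, while the folate, serine transport and ATF4 lists hold filled points on both sides. Cth, Cbs, Slc1a4 and Trib3 are drawn and enter the medians.

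Each enzyme's profile over the 12 libraries was set against those of 9653 genes whose mean scaled coverage reached 8, by the root mean square distance of centred log2 values. Phgdh had another of the 10 enzymes as its nearest gene, Shmt2 (distance 0.099), followed by Hmga1b (0.101) and Hmga1 (0.102), a pair of near-identical genes that can share reads. Shmt2 had Ctps (0.085), Hmga1 and Hmga1b (both 0.095) nearest. Psat1 was nearest to Pop1 (0.094), Rcc1 (0.098) and Ahcy (0.11), and Mthfd1 to Hspd1 (0.072), Mcm2 (0.077) and Nolc1 (0.081). The profile of Mthfd2 was nearest to Vdac1 (0.062), Gins3 (0.071) and Strap (0.079), that of Psph to Drg2 (0.056), Ubac1 (0.061) and Lzic (0.063), and that of Mthfd1l to Dis3 (0.078), Pitrm1 (0.098) and Gemin5 (0.1). Shmt1 stood farthest from other genes, with Galnt14 (0.167), Arvcf (0.193) and Chek1 (0.197) nearest and Psat1 as the nearest of the other enzymes at 0.548. These distances are a description of 12 libraries that share the genotype differences above. Values were centred but not scaled, so a distance also reflects the size of a gene's change, which was largest among the tested enzymes for Shmt1.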

How the data were processed

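RNA of 12 libraries was measured, 4 per genotype by the titles. Each library has its own deposited file, which gives the coverage of every gene symbol as the authors computed it, a signal with 1 decimal; 91.6% of values above 0 are not whole, so no count test was used. The submitters' processing notes name mm10, DESeq and R 4.3.3, with no role; aligner, counting step and annotation are not given in the sources used here. No deposited column was without a sample (0).

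Coverage was scaled by trimmed means of log ratios to the geometric mean library (30% of ratios and 5% of means trimmed at each end). Genes whose scaled coverage reached 1 in 4 or more of the 8 libraries of a comparison were tested with limma 3.58.1 in R 4.3.3 (trended prior, robust empirical Bayes, two-sided) on log2(scaled coverage + 0.5), with Benjamini-Hochberg adjustment over all genes tested and a threshold of 0.05. A fold change on this scale understates that of low genes. Ratios were compared by exact permutation tests, adjusted over 9. Tables came from pandas 2.3.3 and numpy 2.4.6, exact tests from scipy 1.17.1 and figures from matplotlib 3.10.9, all under Python 3.11.15. Annotation is GENCODE on GRCm38, which is mm10, and RefSeq for promoters. CCAAT and the GC box were added to the motifs after the files had been seen.

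On simulated data with a log2 change of 1, the fit recovered 75.5%, 46.0% and 42.4% of changed genes (Eμ-Myc against WT, knockout against Eμ-Myc, knockout against WT). With 1.5 it recovered 83.0%, 66.0% and 63.0%, and 3.09%, 8.20% and 2.78% of calls were false. Noise was drawn for each gene on its own, with the same SD in both groups. The split of the knockout libraries, shared by many genes, was thus absent. The enzymes also spread more there (median log2 SD 0.801) than all genes did (0.393). These rates therefore need not hold for the enzymes.

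The labels number replicates 1 to 4 in each genotype. Measured from its group mean, each knockout library correlated across genes with the Eμ-Myc library of its own number (r 0.189 to 0.64, over 0.1 in 4 of 4), so these numbers were treated as pairs in the blocked alternative. No label states such pairs, and 4 of the 24 ways to match the libraries pass the same check. Only 4 of these 8 libraries correlated best with their own number. Knockout library 2, for one, had r 0.581 with Eμ-Myc library 1 and 0.189 with library 2, so the pairing is uncertain.

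Named genes were the 10 enzymes, up to 4 called genes of each of the 5 pathway lists with the largest change in Eμ-Myc against WT, Prps2 and Myc, and the 3 genes nearest to each tested enzyme. The pathway lists were folate cycle, glycine cleavage, methionine and transsulfuration, serine transport and use, and ATF4 programme. Proliferation and 8 marker lists (T cell, B cell, immature B cell, platelet, erythroid, plasma cell, myeloid, NK cell) were used beside them. In Eμ-Myc against WT, B cell markers were called higher and lower in 0 and 1 of 5, immature B cell in 3 and 1 of 5 (leaving out Rag2, which passed the filter through Eμ-Myc alone), plasma cell in 0 and 2 of 5, myeloid in 0 and 0 of 8, erythroid in 0 and 0 of 6, and platelet in 0 and 1 of 4. Some genes of these lists are not reported here and are left out of their counts and sums. The enzymes and lists were chosen with earlier results of these data known. Alternatives tried were scaling by total coverage or by median of ratios, pseudocounts of 0.1 and 2, no filter, a filter of 10, a replicate block, 1 fit over all 12 libraries, library quality weights and leaving out each library.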

Additional observations from a re-analysis of the deposited data

Results flagged for a closer look

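Phgdh in Eμ-Myc library 1 stood apart from its group, at 238 where the other 3 libraries had 331 to 349; its gap to the nearest of them was 0.842 of the group's range, over the critical value of Dixon's test for 4 samples. Aldh1l2 and Gldc stood apart in Eμ-Myc library 3, each at 0.101 after scaling where the other libraries were at 0; both rest on a single step of 0.1 in the file. These are 3 of 26 groups of values checked, and chance flags about 1 in 20 groups. A single value above 0 beside values of 0 is always flagged, so that rate does not apply to Aldh1l2 and Gldc.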

How the results depend on the processing

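In Eμ-Myc against WT, the 8 enzymes tested were called under each alternative run (Aldh1l2 and Gldc, fitted only without a filter, were not), with 5852 to 6912 genes called when 1 library was left out. Scaling to total coverage moved the median of all genes by -0.12 on the log2 scale in both comparisons with WT, and 8 of 8 enzymes were called there too. In the knockout group against Eμ-Myc, 0 enzymes and 1 gene were called under each alternative but library quality weights, with 8 enzymes and 7698 genes. Against WT, the knockout group had 6094 genes called with all 12 libraries in one fit and 10533 with weights. Leaving out 1 library gave 431 to 6667 genes (2 to 8 enzymes): 755, 431, 431 and 1052 without WT library 1 to 4, and 6667, 4152, 592 and 511 without knockout library 1 to 4. The cause was not tested. Psph did not pass without a filter (adjusted p = 0.0519, limma), which adds genes to the adjustment.

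With the replicate number as a block, 7301 genes were called in Eμ-Myc against WT, 1 in knockout against Eμ-Myc and 1591 in knockout against WT (6 of 8 enzymes). Only a number was shared with WT, since same-numbered correlations were -0.0987 to 0.249 with Eμ-Myc and -0.41 to 0.39 with the knockout group. There 4 and 2 of 8 libraries correlated best with their own number, beside 4 of 8 for the knockout group and Eμ-Myc. The block left the ratio differences from WT at -1.23, -0.69 and -0.51 for Eμ-Myc and -1.11, -0.79 and -0.42 for the knockout group, with an adjusted p of 0.161 each, in an exact test that 4 pairs cannot bring under the threshold. Without 1 library, where an exact test cannot go below 0.0571, these 6 differences ran from -1.34 to -1.19 (Shmt2/Shmt1), -0.80 to -0.59 (Mthfd2/Mthfd1) and -0.55 to -0.47 (Mthfd1l/Mthfd1) in Eμ-Myc, and from -1.22 to -1.06, -0.86 to -0.69 and -0.46 to -0.39 in the knockout group (adjusted p = 0.0857). The Mthfd2/Mthfd1 difference of the knockout group from Eμ-Myc ran from -0.17 to 0.0.

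Signs of log2 fold changes in knockout against Eμ-Myc, none called without weights, turned with the setting. With weights they were 0.62 for Shmt1, 0.55 for Phgdh, 0.42 for Psph, 0.48 for Tyms, 0.19 for Slc1a5 and 0.66 for Ahcy, and these 6 were called. Pseudocounts gave 0.0 for Ahcy (2) and -0.0 for Cth (0.1). Leaving out 1 library gave -0.30 to 0.24 for Phgdh, -0.23 to 0.33 for Psat1, -0.17 to 0.21 for Psph, -0.35 to 0.29 for Shmt1, -0.19 to 0.34 for Shmt2, -0.10 to 0.41 for Mthfd1, -0.15 to 0.25 for Mthfd2, -0.01 to 0.49 for Mthfd1l, -0.47 to 0.11 for Tyms, -0.22 to 0.41 for Slc19a1, -0.12 to 0.38 for Fpgs, -0.26 to 0.31 for Gcsh, -0.15 to 0.17 for Dld, -0.33 to 0.40 for Cth, -0.28 to 0.33 for Ahcy, -0.12 to 0.27 for Sfxn1, -0.18 to 0.01 for Slc1a5, -0.36 to 0.14 for Sfxn3, -0.15 to 0.50 for Asns, -0.09 to 0.47 for Slc7a5, -0.66 to 0.12 for Ddit4 and -0.07 to 0.46 for Myc. Read depth is unknown and limits low genes, Aldh1l2 and Gldc above all.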
